A study of Macaca mulatta with 16 samples.

Results

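Pulmonary neuroendocrine cells are rare epithelial cells of the conducting airways, scattered singly or gathered at branch points in innervated clusters called neuroepithelial bodies. They sense oxygen, stretch and inhaled irritants and release amines and peptides from dense-core granules, and they are among the first airway cells to differentiate in the fetal lung. The 8 genes followed here were GRP, CALCA, CHGA and SCG2 (peptides and granule proteins), INSM1 (a transcription factor), SYP (a vesicle membrane protein), ROBO2 (an axon guidance receptor) and UCHL1 (a ubiquitin hydrolase). They were picked by symbol, and each matched 1 row of the 22515-gene table of fetal rhesus macaque lung. Of the 8, 7 had enough reads to be tested among 19199 genes, and INSM1 did not.

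RNA-seq was performed on left lung from 16 fetuses, 1 library per animal. The 4 preterm controls had no intervention and were delivered at 131 to 135 days of gestation, and the 2 term controls were delivered at 156 and 157 days. The 4 LPS 16h animals received 1 mg of lipopolysaccharide (LPS, a bacterial cell wall component that provokes inflammation) into the amniotic fluid at 129 or 130 days and were delivered 16 hours later. The 3 LPS 5d animals received the same dose at 126 to 129 days and were delivered 5 days later. The 3 LPS + Beta-Ac animals also received betamethasone acetate, a corticosteroid given to the mother by intramuscular injection at 0.125 mg/kg, and were delivered 5 days after LPS, at 131 or 132 days. Controls received neither agent, and no group received the steroid alone. Total counts were 30596371 to 48052891 in the LPS 16h libraries and 20169363 to 28348816 in the others, so depth differed with that group. As a check of the tissue, the lung epithelial regulator NKX2-1 lay between 47.2 and 166 CPM (counts scaled to library size) and the surfactant gene SFTPC was present in all 16 libraries. In whole lung, fewer cells of a type and less RNA per cell cannot be told apart.

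The main difference was in CALCA, the gene for calcitonin and calcitonin gene-related peptide (CGRP), which rose 16 hours after LPS and was near the preterm level 5 days after it. SYP, ROBO2 and UCHL1 fell at 16 hours, each by less than 2-fold. GRP, CHGA and SCG2 did not pass the test in any comparison. A gene passed when its adjusted p (limma, Benjamini-Hochberg over 19199 genes) was below 0.05, and was called when it also differed by at least 2-fold.

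Between LPS 16h and preterm controls, 1 of the 7 tested members was called, against 14.4% of all genes tested, and 4 of the 7 passed the test alone, against 38.5%. Between LPS 16h and LPS 5d, 1 of the 7 was called and the same gene was the sole one to pass, against 14.6% and 35.1% of all genes. No member was called for LPS 5d, LPS + Beta-Ac or term controls against preterm controls, where 4.83%, 6.49% and 2.07% of all genes were called. The same count of 0 held for LPS + Beta-Ac against LPS 5d (0.0885% of all genes), LPS 5d against term (0.0625%) and LPS + Beta-Ac against term (0.568%). At an unadjusted p below 0.05 in limma, these 6 comparisons held, in the order given, 1, 2, 1, 0, 1 and 1 members (ROBO2, then ROBO2 and UCHL1, then ROBO2, none, SYP and SYP), and limma-voom also called none. The same unadjusted threshold held 28%, 30.1%, 18.9%, 4.81%, 11% and 14.5% of all genes in these comparisons. The median log2 fold change of the 7 members was -0.69 for LPS 16h against preterm controls, beside -0.09 over all genes tested. This median is the estimate of GRP (-0.69 ± 0.76 SE, limma adjusted p = 0.51), which had 8.5 and 11 reads per library on average in these groups. Comparisons with preterm controls share those 4 animals and are not independent of each other. For counts in the other gene lists below, the share of all genes is that given here for the same comparison.

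**Figure D1:**
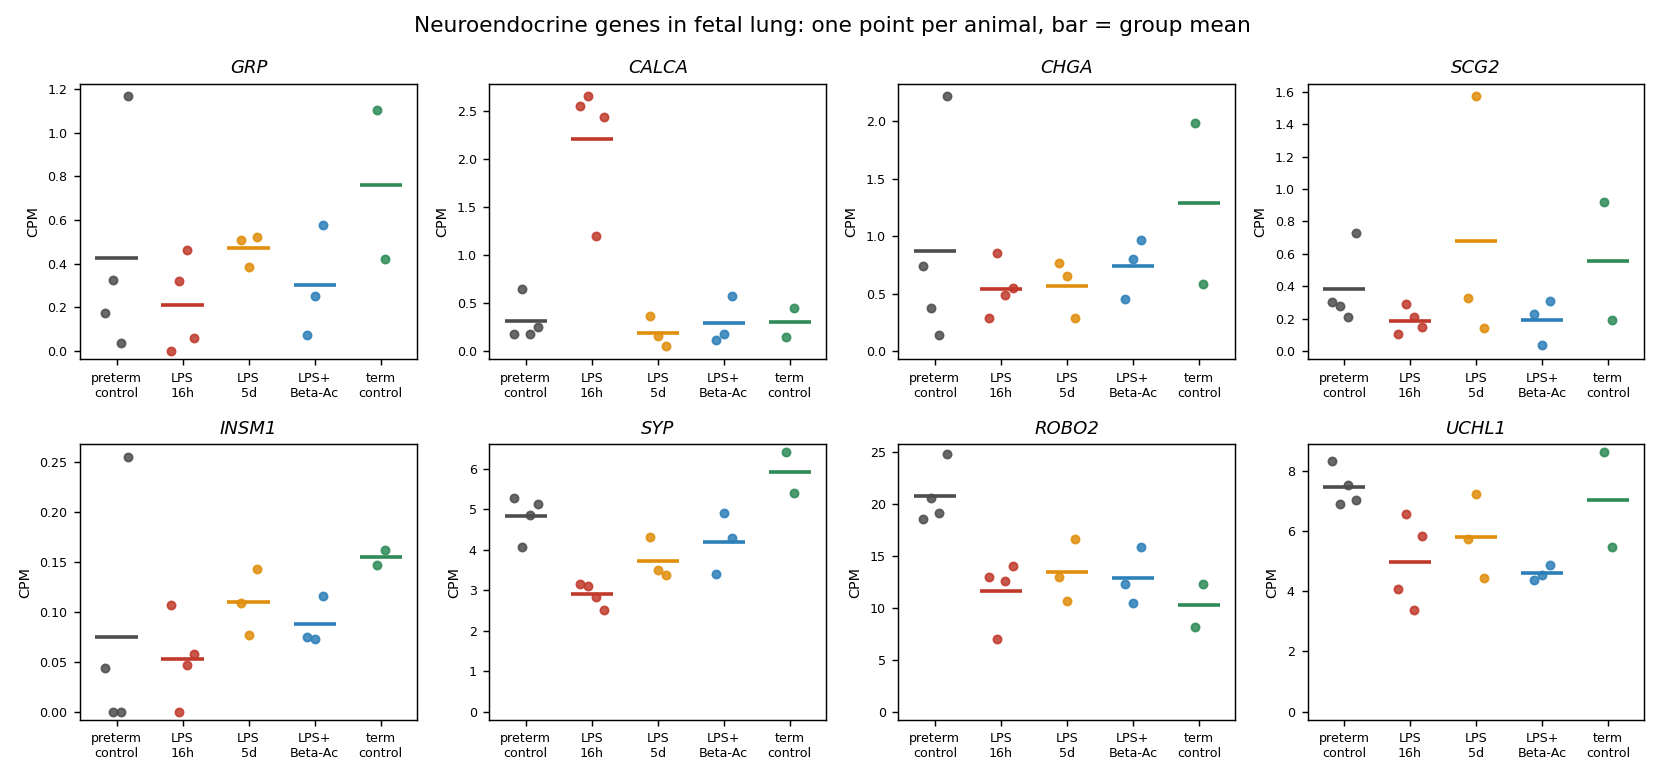
CPM (vertical axis, linear, a separate scale per panel) of the 8 genes in 5 groups, with 1 point per animal and a bar at the group mean. CALCA in the 4 LPS 16h animals lies above every other animal, and ROBO2 in the 4 preterm controls lies above every other animal.

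CALCA is spliced to encode either calcitonin or CGRP, a vasodilator peptide of neuroendocrine cells and sensory nerves, and its precursor procalcitonin is known as a blood marker of bacterial inflammation. The counts are per gene and do not separate these products. In the LPS 16h animals CALCA measured 2.56, 2.66, 1.21 and 2.44 CPM (animals 026, 029, 035 and 038), from 52 to 100 reads each. Preterm controls had 0.174, 0.648, 0.177 and 0.255 CPM (animals 092, 101, 113 and 209), from 4 to 14 reads each. All 4 animals at 16 hours were above all 4 controls, and animal 035 was the lowest of them. CALCA was 6.35-fold higher at 16 hours (log2 fold change 2.67 ± 0.52 SE, limma adjusted p = 0.00095, higher in 4 of 4 animals). The exact permutation test of this gene alone gave a two-sided p of 0.0286, the smallest that 4 against 4 animals allow.

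The rise of CALCA was not seen in the animals examined 5 days after LPS. CALCA measured 0.363, 0.154 and 0.0475 CPM in LPS 5d (animals 239, 240 and 242) and 0.113, 0.181 and 0.578 CPM in LPS + Beta-Ac (animals 248, 249 and 255). Term controls had 0.147 and 0.453 CPM (animals 200 and 201). These 3 groups overlapped each other and the preterm controls. LPS 16h exceeded LPS 5d by 3.28 ± 0.57 on the log2 scale (limma adjusted p = 0.00037), with an average of 5 reads per LPS 5d library behind the lower level. In the order of group means, LPS 16h stood apart from preterm control, while preterm control, term control, LPS + Beta-Ac and LPS 5d followed without gaps between neighbours. CALCA would have met the filter on low counts without the LPS 16h group, since 3 other animals reached its threshold of 0.371 CPM.

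Inflammatory cell genes were also higher at 16 hours. Of 12 myeloid genes, 10 were called higher at 16 hours and none lower, and their summed level was 2446 to 3086 CPM against 175 to 303 CPM in preterm controls. The neutrophil gene S100A8 rose from 1.57 to 4.26 CPM in preterm controls to 381 to 655 CPM. In LPS + Beta-Ac, 11 of the 12 myeloid genes were called higher, with a sum of 582 to 930 CPM, while CALCA there overlapped the controls. In LPS 5d, where CALCA was lowest on average, 6 of the 12 were called higher, with a sum of 323 to 356 CPM. The part of myeloid cells in the CALCA result was not tested. CALCB, the paralogous CGRP gene, had at most 0.139 CPM in any library, and no reads were assigned to it in 3 of the 4 LPS 16h libraries.

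**Figure D2:**
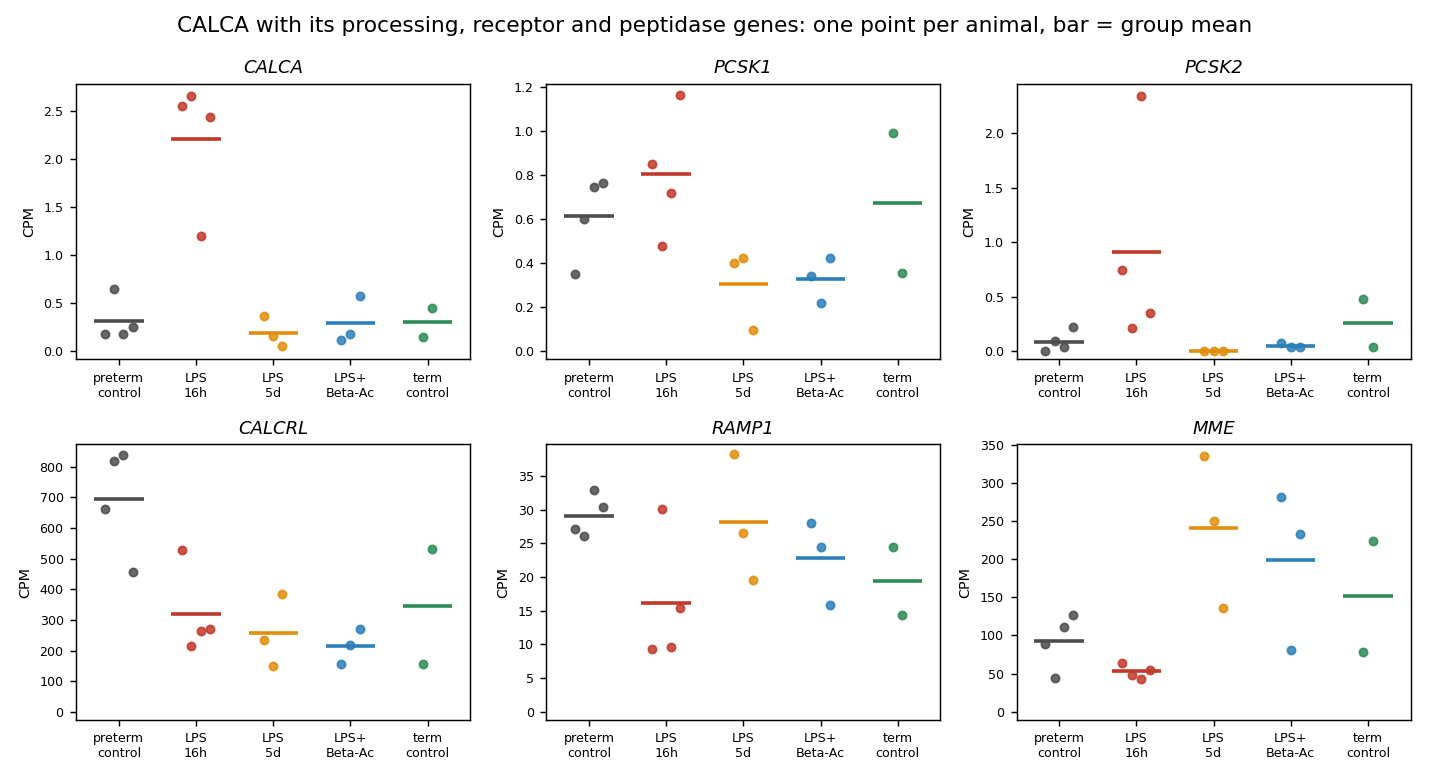
CPM (vertical axis, linear, a separate scale per panel) of CALCA, the prohormone convertase genes PCSK1 and PCSK2, the CGRP receptor genes CALCRL and RAMP1, and the peptidase gene MME, with 1 point per animal and a bar at the group mean. CALCA and PCSK2 are highest on average at 16 hours, while CALCRL is highest on average in preterm controls.

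Other neuroendocrine genes moved in both directions at 16 hours. Of 26 such genes (20 tested), 3 rose and 2 fell, where 38.5% of all genes passed in either direction. Of the 20, 1 was called higher and 1 lower, against 14.4% of all genes called. The median log2 fold change of the 20 was -0.18, beside -0.09 over all genes tested. PAM, which amidates peptides such as CGRP and GRP, rose from 225 to 282 CPM in preterm controls to 308 to 355 CPM (log2 fold change 0.36 ± 0.11, limma adjusted p = 0.015). CPE, a carboxypeptidase of prohormone processing, fell from 92.3 to 161 CPM to 54.2 to 88.4 CPM (log2 fold change -0.96 ± 0.20, limma adjusted p = 0.0014). Neither range overlapped that of the controls. ENO2, also of this list, had 19.3 to 22.4 CPM at 16 hours, above 11.6 to 15.9 CPM in preterm controls. The gene called higher was PCSK2, a prohormone convertase, with 0.745, 0.213, 2.34 and 0.349 CPM at 16 hours. Preterm controls had 0, 0.0926, 0.0355 and 0.219 CPM of PCSK2, so animal 029 at 16 hours lay within their range, and the 3 LPS 5d libraries had no read. PCSK2 met the filter on low counts through 2 LPS 16h animals and 1 other, so it would not have been tested without the group where it is high, and no fold or p is given. The related convertase PCSK1 was 2.49-fold higher at 16 hours than at 5 days (limma adjusted p = 0.037), a call lost without any 1 of animals 026, 035, 038 and 242 (adjusted p 0.062 to 0.21). PCSK1 had 0.479 to 1.16 CPM at 16 hours, overlapping 0.348 to 0.765 CPM in preterm controls, and 0.0951 to 0.422 CPM in LPS 5d.

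SYT1, a calcium sensor for vesicle release, was the other neuroendocrine gene called. It fell in every LPS group against preterm controls, by 1.34 ± 0.27 on the log2 scale at 16 hours, 1.57 ± 0.30 in LPS 5d and 1.64 ± 0.30 in LPS + Beta-Ac (limma adjusted p = 0.0013, 0.0028 and 0.0016). Preterm controls measured 3.64 to 5.18 CPM, above all 10 LPS-exposed animals at 1.02 to 2.48 CPM and above the term controls at 2.28 and 2.56 CPM (term log2 fold change -0.81 ± 0.34, limma adjusted p = 0.20). In term controls no gene of this list passed, and the most abundant one, PAM, measured 188 and 221 CPM against 225 to 282 CPM in preterm controls (limma adjusted p = 0.20).

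Of the CGRP receptor genes, CALCRL was lower in all 3 LPS groups than in preterm controls, RAMP1 was lower at 16 hours, and term controls had a CALCRL difference of similar size that did not pass. CALCRL, the receptor subunit shared by CGRP and adrenomedullin, had 662, 820, 839 and 456 CPM in preterm controls and 528, 215, 264 and 270 CPM at 16 hours, so animal 026 overlapped the lowest control. It measured 234, 150 and 386 CPM in LPS 5d and 157, 217 and 271 CPM in LPS + Beta-Ac, all below the controls. CALCRL fell by 1.17 ± 0.40 on the log2 scale at 16 hours, 1.50 ± 0.43 in LPS 5d and 1.68 ± 0.43 in LPS + Beta-Ac (limma adjusted p = 0.032, 0.031 and 0.015). Term controls had 157 and 532 CPM (log2 fold change -1.22 ± 0.49, limma adjusted p = 0.18). Each call depended on single animals. The 16-hour call was lost without any 1 of 029, 035, 038, 092, 101 and 113 (adjusted p 0.056 to 0.093), the LPS 5d call without 092, 101, 113, 239 or 240 (0.060 to 0.16), and the LPS + Beta-Ac call without 248 or 249 (0.078 and 0.052). CALCRL is also an endothelial gene, and the part of endothelial cells was not tested.

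RAMP1, which turns CALCRL into a CGRP receptor, had 9.37, 30.2, 9.64 and 15.5 CPM at 16 hours and 26.1 to 32.9 CPM in preterm controls. Animal 029 lay within the control range and the other 3 lay below it (log2 fold change -1.01 ± 0.33, limma adjusted p = 0.027). This call was lost without 026, 035, 113 or 209 (adjusted p 0.052 to 0.090). RAMP1 did not pass in LPS 5d or LPS + Beta-Ac (log2 fold changes -0.09 ± 0.36 and -0.38 ± 0.36, limma adjusted p = 0.90 and 0.52). RAMP2 and RAMP3 are partners of CALCRL in adrenomedullin receptors. RAMP2 had 98.3 to 166 CPM at 16 hours and 208 to 254 CPM in preterm controls. It fell by less than 2-fold (log2 fold change -0.88 ± 0.14, limma adjusted p = 0.00016). RAMP3 did not pass at 16 hours (log2 fold change 0.18 ± 0.16, limma adjusted p = 0.41). MME encodes neprilysin, a peptidase that degrades bombesin-like peptides. It had 64.4, 48.8, 42.9 and 55.3 CPM at 16 hours and 336, 250 and 136 CPM at 5 days, with no overlap, and was lower at 16 hours than at 5 days (log2 difference -2.11 ± 0.49, limma adjusted p = 0.0042). Preterm controls had 44.0 to 127 CPM, and neither time passed against them (log2 fold changes -0.72 ± 0.45 at 16 hours and 1.38 ± 0.49 at 5 days, limma adjusted p = 0.23 and 0.076). Among 15 receptor and SLIT-ROBO genes (13 tested), 1 was called higher and 2 lower at 16 hours. GRPR, the receptor for the GRP peptide, had 0 to 0.787 CPM in preterm controls and 0.266 to 1.1 CPM at 16 hours and did not pass (limma adjusted p = 0.36).

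GRP encodes gastrin-releasing peptide, the bombesin-like growth factor of neuroendocrine cells. It had 0.174, 0.324, 0.0355 and 1.17 CPM in preterm controls and 0, 0.319, 0.464 and 0.0581 CPM at 16 hours. The 0 in animal 026 allows up to 0.106 CPM (3 reads; counting error only). LPS 5d had 0.508, 0.384 and 0.523 CPM, LPS + Beta-Ac 0.0754, 0.254 and 0.578 CPM, and term controls 1.10 and 0.421 CPM. All 5 groups overlapped their neighbours in the order term control, LPS 5d, preterm control, LPS + Beta-Ac, LPS 16h. GRP differed from preterm controls by -0.69 ± 0.76 at 16 hours and by 1.18 ± 0.93 at term on the log2 scale (limma adjusted p = 0.51 and 0.55), and a 2-fold difference lies within these errors.

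CHGA encodes chromogranin A, a structural protein of dense-core granules. It measured 0.740, 0.371, 0.142 and 2.22 CPM in preterm controls, 0.284, 0.851, 0.487 and 0.552 CPM at 16 hours, and 0.763, 0.653 and 0.285 CPM in LPS 5d. LPS + Beta-Ac animals had 0.452, 0.798 and 0.964 CPM and term controls 1.99 and 0.583 CPM. The groups overlapped, in the order term control, preterm control, LPS + Beta-Ac, LPS 5d, LPS 16h, and preterm animal 209 and term animal 200 were the highest. The difference of CHGA at 16 hours was -0.15 ± 0.61 on the log2 scale (limma adjusted p = 0.87).

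SCG2 encodes secretogranin II, another granule protein, and passed the filter on low counts through 3 animals. It had 0.305, 0.278, 0.213 and 0.729 CPM in preterm controls and 0.106, 0.293, 0.209 and 0.145 CPM at 16 hours. LPS 5d measured 0.327, 1.57 and 0.143 CPM, LPS + Beta-Ac 0.226, 0.0363 and 0.308 CPM, and term controls 0.920 and 0.194 CPM. Animal 240 of LPS 5d was the highest of all 16, and neighbours in the order LPS 5d, term control, preterm control, LPS + Beta-Ac, LPS 16h overlapped.

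INSM1, a zinc finger factor of neuroendocrine differentiation, had 0 to 7 reads per library. Preterm animal 209 was highest with 7 reads (0.255 CPM), and animals 101, 113 and 029 had none, which allows up to 0.139, 0.106 and 0.0798 CPM. The term controls had 4 and 5 reads (0.147 and 0.162 CPM), above the LPS 5d animals with 2 to 3 reads, a gap of 1 read. No fold was computed for this gene.

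Animals 209 and 200 carried the most GRP and CHGA of the 16. KRT5, a keratin of airway basal cells, was 45.6 and 24.0 CPM in these animals and 0.532 to 23.6 CPM in the others. TP63, a basal cell factor, was 3.35 and 2.10 CPM there and at most 1.44 CPM elsewhere. SCGB1A1, a secretory cell gene of the airways, was 62.1 and 124 CPM in animals 209 and 200 and 1.39 to 93.2 CPM in the others, so that animal 209 lay below 3 of the other animals. Not all airway genes were highest in these 2 animals. SCGB3A2, another airway secretory gene, reached 255 CPM in LPS 5d, against at most 128 CPM in preterm and 107 CPM in term controls. FOXJ1, a ciliated cell gene, reached 65.4 CPM in preterm controls and 50.8 CPM in LPS 5d, against at most 46.2 CPM in term controls. The part of airway content of the tissue piece in these levels was not tested.

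**Figure D3:**
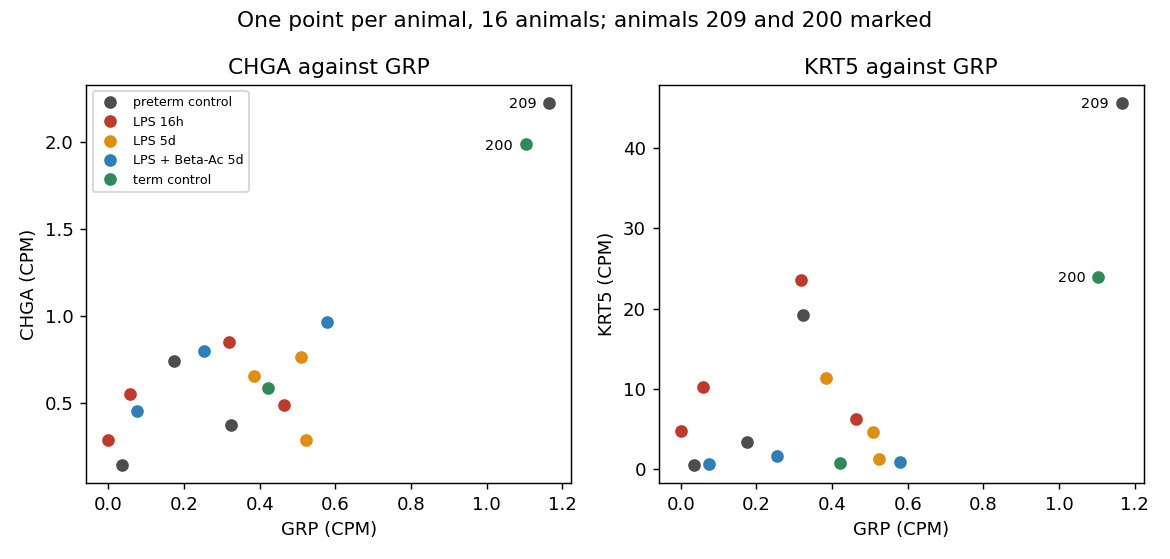
CHGA and KRT5 (vertical axes, CPM) against GRP (horizontal axis, CPM), with 1 point per animal coloured by group. Animals 209 and 200 lie at the right of both panels, with the 2 highest GRP levels, 1.17 and 1.10 CPM. In the KRT5 panel animal 200 (24.0 CPM) lies about level with the highest LPS 16h animal (23.6 CPM).

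GRP and CHGA varied together across animals. Over 16 animals their log2 CPM values had a Pearson r of 0.72 (permutation p = 0.0015, adjusted 0.031 over 21 pairs of members) and a Spearman rho of 0.61 (permutation p = 0.013, adjusted 0.13). Pearson r was 0.58 without the animals farthest in GRP (026 and 113), 0.54 without 209 and 200, and 0.76 after the group means were subtracted. None of the other 20 pairs had an adjusted p below 0.05. Values of GRP, CALCA, CHGA and SCG2 rest on few reads in most libraries. SYP, ROBO2 and UCHL1 had 1859, 6371 and 2663 reads in all. CALCA and CHGA had an r of -0.08 pooled and 0.11 within groups, so CALCA levels did not follow those of CHGA in these animals.

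SYP encodes synaptophysin, a small-vesicle membrane protein of neuroendocrine cells and neurons. It measured 5.27, 4.08, 4.86 and 5.14 CPM in preterm controls and 3.16, 3.11, 2.83 and 2.50 CPM at 16 hours, with no overlap. SYP fell by 0.72 ± 0.16 on the log2 scale at 16 hours (limma adjusted p = 0.0028, lower in 4 of 4 animals). LPS 5d had 4.32, 3.49 and 3.37 CPM, LPS + Beta-Ac 3.39, 4.89 and 4.28 CPM, and term controls 6.40 and 5.41 CPM. Term controls stood above the preterm controls and LPS 16h stood below LPS 5d, while the groups between overlapped. Neither gap passed (term log2 fold change 0.29 ± 0.20, LPS 16h against LPS 5d -0.35 ± 0.18, limma adjusted p = 0.49 and 0.14).

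ROBO2 is a receptor for SLIT proteins, known to act in neuroendocrine cells to keep them clustered, and is also a gene of mesenchyme and nerves. It had 18.5, 20.6, 19.2 and 24.9 CPM in preterm controls, above each of the other 12 animals. The LPS 16h animals measured 13.0, 6.97, 12.6 and 14.0 CPM, LPS 5d 13.0, 10.7 and 16.6 CPM, LPS + Beta-Ac 12.4, 10.5 and 15.9 CPM, and term controls 8.13 and 12.4 CPM. The 4 lower groups overlapped each other. ROBO2 fell by 0.87 ± 0.23 on the log2 scale at 16 hours (limma adjusted p = 0.0071). Its differences were -0.64 ± 0.25 in LPS 5d, -0.70 ± 0.25 in LPS + Beta-Ac and -1.04 ± 0.28 at term, none of which passed (limma adjusted p = 0.098, 0.065 and 0.050). All 3 passed without LPS 16h animal 029 (limma adjusted p = 0.045, 0.026 and 0.021), which had the lowest ROBO2 and entered the shared estimate of spread. Fits of the compared groups alone also passed for LPS 5d and LPS + Beta-Ac (0.048 and 0.030), while 7 of 8 alternatives did not pass for either. In 15 of 16 fits with 1 animal left out, none of the 3 differences passed. Limma adjusted p in these fits reached 0.38 for LPS 5d and 0.27 for LPS + Beta-Ac. The term difference ranged from -1.34 to -0.74 with 1 animal left out.

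Mesenchymal genes were also lower at 16 hours. In that comparison 5 of 8 mesenchymal markers fell and none rose, where 38.5% of all genes passed in either direction. Of the 8, 2 were called lower, against 14.4% of all genes called. TCF21, a factor of lung mesenchyme, fell by 1.94 ± 0.18 on the log2 scale (limma adjusted p = 7.3e-07). TCF21 did not pass in LPS 5d, LPS + Beta-Ac or term controls, where it measured 129 to 177 CPM against 115 to 198 CPM in preterm controls. The summed mesenchymal level was 14136 to 21472 CPM in preterm controls, 9358 to 12246 CPM at 16 hours, 8397 to 14483 CPM in LPS 5d, 8449 to 11322 CPM in LPS + Beta-Ac and 7640 to 8616 CPM at term, so that LPS 5d overlapped the preterm controls. Collagen genes and ELN make up most of this sum. The part of mesenchyme in the ROBO2 level was not tested. Of the SLIT and ROBO genes, SRGAP1, which links ROBO receptors to the cytoskeleton, had 29.7, 10.9, 27.6 and 27.5 CPM at 16 hours against 7.45 to 11.4 CPM in preterm controls. It rose 2.39-fold (log2 fold change 1.26 ± 0.27, limma adjusted p = 0.0019), with animal 029 inside the control range. The related gene SRGAP2 fell, from 147 to 173 CPM in preterm controls to 76.5 to 110 CPM at 16 hours (log2 fold change -0.76 ± 0.12, limma adjusted p = 0.00011). The ligand gene SLIT3 also fell (log2 fold change -0.45 ± 0.17, limma adjusted p = 0.046). The ligand gene SLIT2 measured 67.2 to 136 CPM at 16 hours and 99.7 to 123 CPM in preterm controls and did not pass (limma adjusted p = 0.24).

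UCHL1, also known as PGP9.5, is a ubiquitin hydrolase of neurons and neuroendocrine cells. It had 8.32, 6.90, 7.53 and 7.03 CPM in preterm controls and 4.08, 6.57, 3.38 and 5.84 CPM at 16 hours, with no overlap. UCHL1 fell by 0.62 ± 0.22 on the log2 scale (limma adjusted p = 0.036), a result lost in the fit of these 2 groups alone (0.071) and without any 1 of 026, 035, 092, 101, 113 and 209 (0.052 to 0.13). LPS 5d measured 5.74, 7.22 and 4.42 CPM, LPS + Beta-Ac 4.37, 4.53 and 4.86 CPM, and term controls 8.61 and 5.47 CPM. All 3 LPS + Beta-Ac animals were below the controls (log2 fold change -0.69 ± 0.24, limma adjusted p = 0.059), and this passed without any 1 of 029, 035, 200 and 201 (0.041 to 0.050), in the fit of these 2 groups alone (0.018), with library totals (0.044) and with thinned libraries (0.049). The LPS + Beta-Ac difference of UCHL1 did not pass in 12 of 16 fits with 1 animal left out (limma adjusted p up to 0.17). It also did not pass in 5 of 8 other alternatives. In the order preterm control, term control, LPS 5d, LPS 16h, LPS + Beta-Ac, neighbours overlapped.

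**Figure D4:**
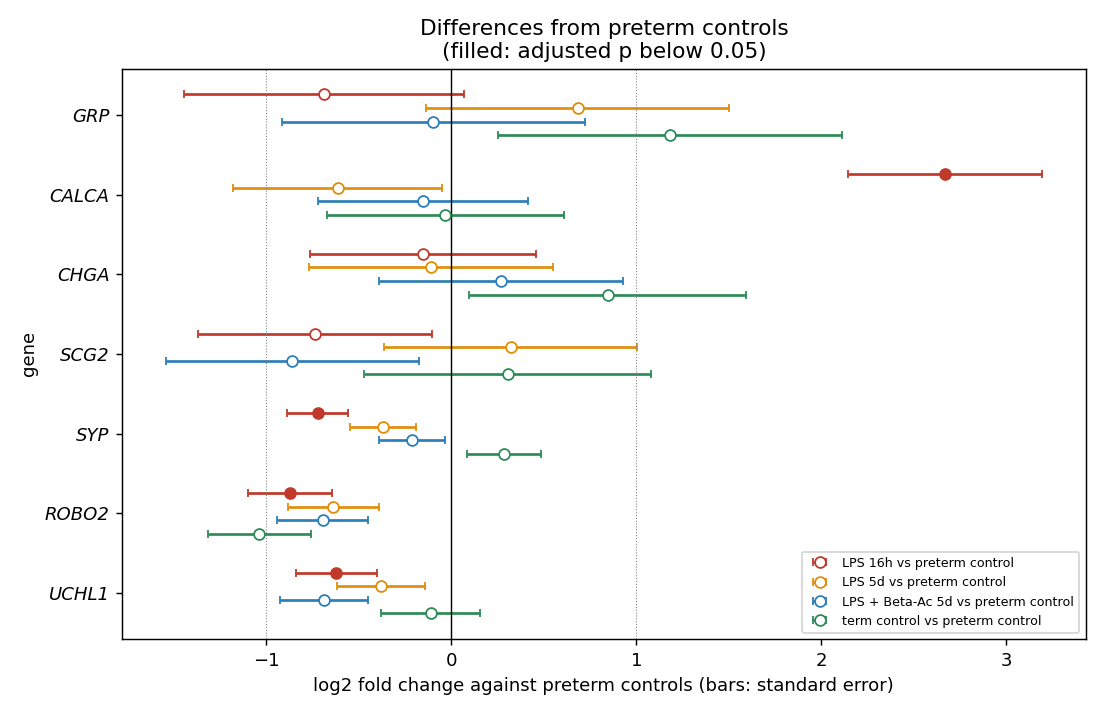
Log2 fold changes of the 7 tested genes (rows) against preterm controls for LPS 16h, LPS 5d, LPS + Beta-Ac and term controls, with bars of 1 standard error and dotted lines at a 2-fold difference. Filled points passed the test, namely CALCA at 2.67 and SYP, ROBO2 and UCHL1 at -0.72, -0.87 and -0.62, all in LPS 16h.

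Nerve and glial genes, which share several members with neuroendocrine cells, were examined beside these falls. Of 18 neuronal genes (13 tested), 1 was called lower at 16 hours and none higher, namely DBH, an enzyme of noradrenaline synthesis (log2 fold change -1.19 ± 0.26, limma adjusted p = 0.0018). Their summed level was 44.3 to 55.5 CPM at 16 hours and 47.1 to 63.1 CPM in preterm controls. CHAT, which marks cholinergic neurons, was at or near 0 in all libraries. Of 8 glial genes (7 tested), 2 were called lower at 16 hours, CDH19 among them, and NGFR, a neurotrophin receptor also found outside nerves, rose (log2 fold changes -1.57 and 1.86, limma adjusted p = 0.00038 and 0.00017). In LPS 5d the most abundant tested neuronal gene, TUBB3, measured 14.5 to 24.1 CPM against 16.4 to 30.7 CPM and did not pass (limma adjusted p = 0.89). In LPS + Beta-Ac, SLC5A7, a choline transporter gene, was the neuronal gene called. It had 0, 0.0725 and 0.270 CPM there against 0.106 to 1.86 CPM in preterm controls. SLC5A7 would not have been tested without the preterm controls, the group where it is high, so no fold or p is given. The part of nerve fibres in the SYP and UCHL1 levels was not tested.

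Notch signalling restrains the neuroendocrine fate in airway progenitors. Of 11 Notch genes (10 tested), 6 fell and none rose at 16 hours, where 38.5% of all genes passed in either direction. Their median log2 fold change was -0.58, beside -0.09 over all genes tested. Of the 10 tested, 2 were called, against 14.4% of all genes. The 2 called were the Notch targets HEYL and HEY1, also expressed in vessels. HEYL had 21.7, 29.8, 22.7 and 27.4 CPM at 16 hours and 51.3 to 58.4 CPM in preterm controls, without overlap, and fell by 1.11 ± 0.12 on the log2 scale (limma adjusted p = 4.2e-06). HEY1 had 16.6, 18.7, 12.9 and 13.0 CPM against 23.6 to 41.1 CPM and fell by 1.09 ± 0.25 (limma adjusted p = 0.0026). HES1, a repressor induced by Notch, had 53.7 to 159 CPM at 16 hours and 62.2 to 209 CPM in preterm controls and did not pass (limma adjusted p = 0.19).

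Epithelial genes moved in both directions at 16 hours. Of 13 epithelial genes tested, 2 rose and 1 fell, and the called gene was ABCA3, a lipid transporter of alveolar type II cells (log2 fold change 1.99 ± 0.18, limma adjusted p = 4.9e-07). NKX2-1 fell, from 76.6 to 114 CPM in preterm controls to 47.2 to 77.6 CPM (log2 fold change -0.55 ± 0.18, limma adjusted p = 0.023).

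The genes whose levels across the 16 animals were most like each member were found among 13797 genes of at least 1 CPM. They were INTS13, CCDC134 and MRPS27 for CALCA (Pearson r 0.90 each), and TGFB2, ZFPM2 and SEMA3C for ROBO2 (0.92, 0.90 and 0.89). For SYP they included ZNF497 and TMPRSS9 (0.90 each), and for UCHL1 CABCOCO1, APOBEC2 and EFCAB2 (0.90, 0.87 and 0.86). Lower likeness was found for TBX1, LGI4 and ZSCAN10 with GRP (0.79, 0.78 and 0.78), for C13H2orf81, SERPINB11 and DCDC1 with CHGA (0.85, 0.84 and 0.82), and for CAMK2B and WHRN with SCG2 (0.84 and 0.81). These are the highest of many values over points that share 5 groups, and describe these animals only.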

How the data were processed

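RNA was extracted by the authors from frozen left lung and sequenced as poly(A) libraries with 75 bp paired-end reads. The authors quantified transcripts with kallisto against Mmul_10 (tool and build as in the submitters' notes, version not given) and deposited whole-number counts per gene for 16 libraries of 20169363 to 48052891 counts. Every column was matched to an animal by its number, and 17256 gene identifiers had a symbol. The 19 pairs of libraries within groups all differed by more than sampling noise (chi-square per degree of freedom 30.5 to 167). Only gene totals were used, so isoforms were not separated. No sequence is shown, promoter motifs were not searched, and coordinates were not used here.

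Counts were scaled by trimmed mean of M values (own code, 30% and 5% trimming) to CPM, and log2 values were taken after a prior count of 2 was added. Fold changes are on this scale and understate those of low genes. Genes were kept with at least 15 reads in all and, in 2 or more animals, at least the CPM that 10 reads give in a library of median size (0.371). Limma 3.58.1 in R 4.3.3 (trend, robust) was fitted with 1 mean per group over all 16 animals, so that groups of 2 to 4 share 1 estimate of spread, and p-values were adjusted by the Benjamini-Hochberg method. Group values are CPM, and errors are standard errors of the fit. Permutation p-values of correlations used 100000 draws and were added to the plan. Members and gene lists were chosen with earlier results of these data known. Named genes were the 8 members, every called gene of the other lists in the comparison described or otherwise the most abundant, and the 3 genes most alike, apart from a few genes not reported here. Others (PCSK1, MME, GRPR, S100A8, HES1, SLIT2, NKX2-1, SFTPC, CALCB, KRT5, TP63, SCGB1A1, PAM and CPE at 16 hours, RAMP2, RAMP3 and CHAT) were named after their values were seen. So were SCGB3A2, FOXJ1, SRGAP2, SLIT3 and ENO2. Scripts were tested on simulated data. Alternatives were another limma model, pairs of groups alone, other scalings, filters and prior counts, and each animal left out.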

Additional observations from a re-analysis of the deposited data

Results flagged for a closer look

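In LPS 16h, animal 035 was far below the other 3 animals in CALCA, at 1.21 CPM, with a gap to the nearest of 0.891 of the group's range on the log2 scale. Animal 029 of the same group was far below the others in ROBO2, at 6.97 CPM, with a gap of 0.849 of the range. Each of the 7 tested members was examined in this way in each of the 2 groups of 4 animals. Chance gives such a gap in about 1 in 20 of these checks.

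The effect of LPS differed between 16 hours and 5 days in 1 member. CALCA was higher at 16 hours by 3.28 on the log2 scale. Among the receptor, partner and other neuroendocrine genes, PCSK1 was higher at 16 hours by 1.31 and SRGAP1 by 1.27. MME had a difference of -2.11, and for MME neither time passed against preterm controls. Each is a test of the difference itself in limma.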

How the results depend on the processing

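The count of called members against preterm controls at 16 hours was 1, and became 2 with scaling by library totals alone (CALCA and ROBO2) and 4 with no minimum fold. Leaving out single animals gave 1 to 1 for this comparison and for LPS 16h against LPS 5d, and 0 to 1 for term against preterm controls, where ROBO2 was called without LPS 16h animal 029. For the other 5 comparisons each of these fits gave 0. Removing animals 209 and 200 together, or thinning all libraries to equal totals, both chosen after seeing the data, changed no count. CALCA at 16 hours against preterm controls ranged from 2.48 to 2.89 on the log2 scale over 8 alternatives (adjusted p 0.00072 to 0.0028) and from 2.50 to 3.02 with 1 animal left out. Against LPS 5d it ranged from 2.99 to 3.72 and from 2.82 to 3.75. No fold change followed here reversed. RAMP1 missed the threshold without 209 and 200 (adjusted p 0.051), and PCSK1 with limma-voom, in the fit of its 2 groups alone and with library totals (0.061 to 0.066).

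Library totals moved the median of all genes to -0.29 for LPS 16h against preterm controls and -0.22 against LPS 5d, and the share of called genes that were higher from 57.4% to 39.4% and from 54.4% to 38.0%. No paired analysis was possible because the groups share no animal numbers. Depth limits GRP, SCG2, CHGA and INSM1, for which most libraries hold few reads.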
